A study of Mus musculus with 4 samples.

Results

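In mouse embryonic stem (ES) cells, 769 of 23946 listed H3K27ac regions (3.21%) carried at least 2 times more signal in Zscan4+ than in Zscan4- cells in both replicates and did not meet a separate limit for regions gained from near silence. H3K27ac is acetylation of lysine 27 on histone H3, measured here by chromatin immunoprecipitation and sequencing. The regions were chosen on these same values. For each replicate, log2(RPKM + 0.5) of the Zscan4- library was subtracted from that of the Zscan4+ library, and both differences had to be at least 1. RPKM is the read count per kilobase of region, scaled to a library of 1000000 reads. The limit was met by 1546 regions (6.46% of the list), and 777 of these were left out because neither Zscan4- library reached 1 RPKM while each Zscan4+ library exceeded 3 RPKM. The 769 that remained are called strengthened regions below, and the 777 are called regions gained from near silence.

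The cells were MC1-ZE7 ES cells of strain MC1 (129S6/SvEvTac), grown without feeder cells in serum medium with leukemia inhibitory factor. They were sorted by how brightly they glowed for Emerald, the green fluorescent reporter of Zscan4 in this one line, into Emerald- cells (Zscan4-, 2 libraries) and the high fraction of Emerald+ cells (Zscan4+, 2 libraries). Both groups share the reporter, the culture and the antibody, and the sort reads the reporter rather than the Zscan4 protein. Library fragments were selected at 200 to 300 bp for replicate 1 and, after amplification, at 200 to 500 bp for replicate 2. Whether separate cultures gave the replicates is not stated in the labels. No input library was used here.

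Acetylation of H3K27 is laid down by the acetyltransferases p300 and CBP at active promoters and enhancers, and it separates active enhancers from those that are only poised. Zscan4 genes encode zinc-finger proteins of the 2-cell embryo that switch on briefly in a few ES cells at a time, in a state known for telomere lengthening and for expression of other genes of the 2-cell stage. A region that already carries some acetylation before that state, and more within it, differs from one that goes from no mark to a mark. The label premarked was therefore checked against the level in Zscan4- cells. The files give regions by position on mm9 with no gene names, and no mm9 annotation or sequence was used here, so no gene, promoter or motif is assigned and marker genes of ES cells were not checked.

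The Zscan4- libraries held 9940120 reads (replicate 1) and 17758810 reads (replicate 2), and the Zscan4+ libraries 18286012 and 15918056, as recovered from the steps of the RPKM values. Between 16.7% and 17.9% of the Zscan4- reads and 13.0% and 19.1% of the Zscan4+ reads lay in the listed regions. Over all regions the median log2 difference was -0.37 in replicate 1 and 0.05 in replicate 2. The mean of both replicates had a median of -0.17 as deposited, which became -0.04 after quantile normalization, so that differences near 0 depend on the scaling.

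Strengthened regions went from the bottom of the list in Zscan4- cells to its middle in Zscan4+ cells. Their median was 1.17 RPKM in Zscan4- replicate 1 and 1.28 RPKM in Zscan4- replicate 2. It was 3.96 RPKM in Zscan4+ replicate 1 and 5.49 RPKM in Zscan4+ replicate 2. Ranked among all 23946 regions by group mean, the median strengthened region stood at percentile 4.96 in Zscan4- and at percentile 49.8 in Zscan4+ cells. The list itself contributes to this picture, since no listed region had both group means under 1.95 RPKM. A region low in Zscan4- cells was therefore on it only if its Zscan4+ level was higher. Read counts were small at the lower end, with a median of 9 and 19 reads per strengthened region in Zscan4- replicates 1 and 2 against 67 and 83 reads in Zscan4+ replicates 1 and 2. In these bulk libraries a higher level per cell and a larger share of cells with the mark cannot be told apart.

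**Figure D1:**
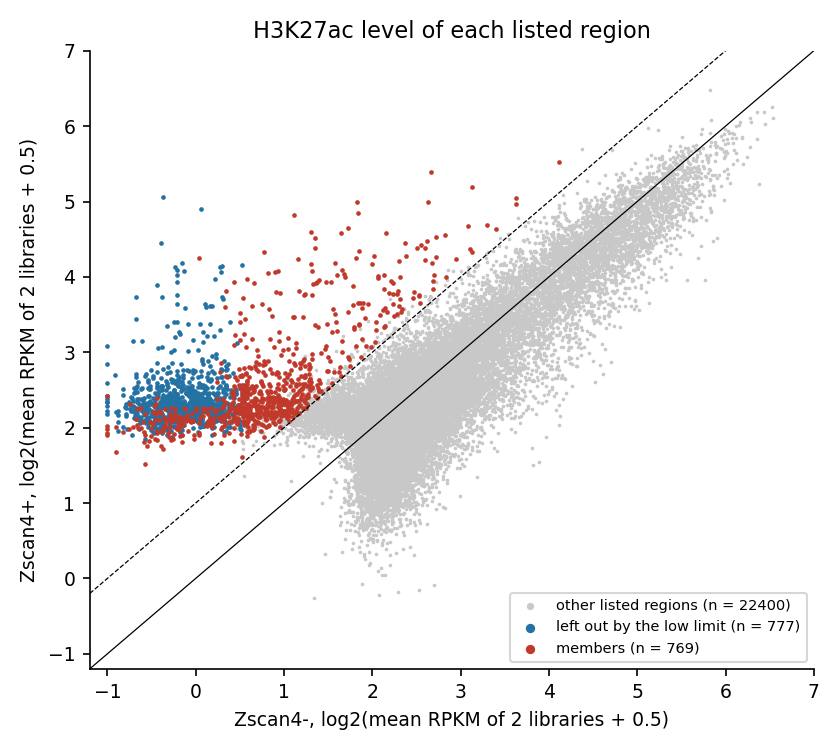
Each point is 1 listed region, with the log2 of its mean RPKM plus 0.5 in Zscan4- cells on the x axis and in Zscan4+ cells on the y axis. The solid line marks equal levels and the dashed line a log2 difference of 1. The 769 strengthened regions (red, named members in the key) lie above the dashed line, most of them as a flat band to the right of the 777 regions gained from near silence (blue), with a thinner arm that climbs along the line.

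All 769 regions had both Zscan4+ values above both Zscan4- values, as did 18.6% of all listed regions. In the limma fit over the whole list, 769 of 769 were called higher at an adjusted p of at most 0.05, against 8.01% of all regions (1917 of 23946). The rule used this contrast, so neither count is support for it. Without Zscan4- replicate 1, or without Zscan4- replicate 2, fewer regions were called, both among the 769 and over the whole list. Those fits take the spread between replicates from the Zscan4+ pair alone. The median standard error over all regions went from 0.36 to 0.65 and 0.64 in this order. The median log2 difference of the 769 regions was 1.71 with all libraries, and 1.62 and 1.74 in those fits.

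The name premarked described only some of the strengthened regions. In 377 of them (49.0%) the level was at least 1 RPKM in both Zscan4- libraries. Another 253 (32.9%) were below 1 RPKM in one of the Zscan4- libraries, and 139 (18.1%) were below 1 RPKM in both. The last class was kept by the rule because at least one Zscan4+ library did not exceed 3 RPKM. In Zscan4- replicates 1 and 2 its median was 0.32 and 0.34 RPKM, close to the 0.39 and 0.40 RPKM of the regions gained from near silence, and 2.75 and 4.74 RPKM in Zscan4+ replicates 1 and 2. As a yardstick, the reads outside the listed regions, spread evenly up to the last listed region of each chromosome, give 0.32 and 0.31 RPKM in Zscan4- replicates 1 and 2. This is arithmetic, not a measured background. The median strengthened region stood at 3.67 and 4.07 times that level in Zscan4- replicates 1 and 2, the median region gained from near silence at 1.22 and 1.27 times, and the median listed region at 14.9 and 16.2 times. At least 2 times the even level in both Zscan4- libraries was found in 543 of 769 (70.6%), and 36 (4.68%) lay at or below it in both. Most strengthened regions thus had some signal over the even level in Zscan4- cells, but few had the level of an ordinary listed region: 20 of 769 reached the list median in both Zscan4- libraries, and 5 reached its upper quartile.

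**Figure D2:**
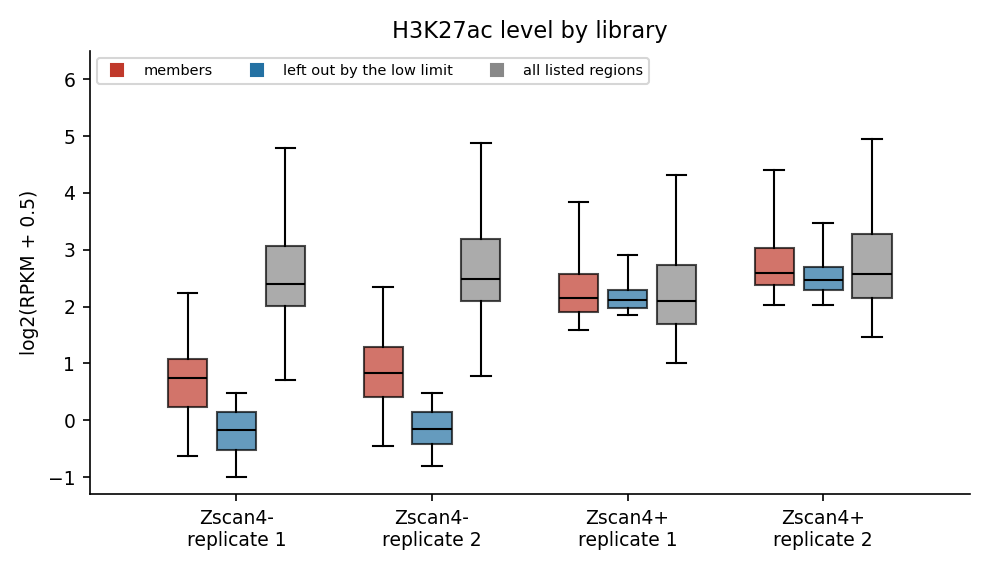
Boxes show log2(RPKM + 0.5) by library for the 769 strengthened regions (red), the 777 regions gained from near silence (blue) and all 23946 listed regions (grey), with the median, the quartiles and whiskers from the 5th to the 95th percentile. In both Zscan4- libraries the red boxes lie between the blue and the grey ones, and in both Zscan4+ libraries the medians of all 3 sets lie close together.

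Up to a starting level of 2 RPKM the median level in Zscan4+ cells rose only modestly. Single regions differed widely, with Zscan4+ means from 3.2 RPKM (R05109) to 27.6 RPKM (R17612) among those named below. The 273 strengthened regions with a Zscan4- mean under 1 RPKM had median Zscan4+ levels of 2.98 RPKM in replicate 1 and 4.89 RPKM in replicate 2, and the 359 with a Zscan4- mean from 1 to 2 RPKM had 4.06 and 5.37 RPKM. Part of this is the rule, which removed regions of the first group above 3 RPKM in both Zscan4+ libraries. The median ratio of group means was 6.69 under 1 RPKM and 3.46 from 1 to 2 RPKM. Above that range the Zscan4+ level was higher as well, which the rule in part requires. A difference of at least 1 sets a least Zscan4+ level, and a least gain in RPKM, that climb with the starting level. The 90 regions that started from 2 to 4 RPKM had median Zscan4+ levels of 8.13 and 12.0 RPKM in replicates 1 and 2, and the 47 that started at 4 RPKM or more had 13.8 and 19.8 RPKM, at median ratios of 3.46 and 2.87. In RPKM gained, the 4 groups of regions had medians of 3.38, 3.26, 7.02 and 11.1 in this order. As a share of the listed regions of the same starting level, strengthened regions made up 25.7% under 1 RPKM, where all 777 regions gained from near silence also lie, and 50.0% from 1 to 2 RPKM. Together both sets made up 1050 of the 1061 listed regions under 1 RPKM. The list largely sets that share, since no listed region had both group means under 1.95 RPKM. Regions low in both groups are thus absent from it. Strengthened regions made up 1.52% from 2 to 4 RPKM and 0.289% at 4 RPKM or more. A limit on the difference selects for low starting levels, so these shares are a description.

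Among the 769, the largest mean log2 difference belonged to R22876, which lies on chromosome 9 from 75302782 to 75302996. It had 0 and 1.05 RPKM in Zscan4- replicates 1 and 2, and 14.31 and 22.6 RPKM in Zscan4+ replicates 1 and 2, a mean log2 difference of 4.39. These values rest on 0 and 4 reads in Zscan4- and 56 and 77 reads in Zscan4+ cells. The pooled ratio, relative to library totals, was 26.9 with an exact 95% counting interval of 10.3 to 100.3. The groups do not overlap, and the size of the difference is poorly fixed because so few reads stand behind the lower value.

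R17455 was the best measured of the 10 regions with the largest differences. It spans 1932 bp on chromosome 5, from 135003867 to 135005799. In Zscan4- replicates 1 and 2 it had 0.83 and 1.17 RPKM (16 and 40 reads), and in Zscan4+ replicates 1 and 2 it had 11.83 and 18.69 RPKM (418 and 575 reads). The ratio was 14.4 with a counting interval of 11.0 to 19.1, so that the interval covers less than 2-fold. R20123, on chromosome 7 from 121481458 to 121482250, had 1.14 and 0.57 RPKM in Zscan4- replicates 1 and 2 and 13.74 and 15.7 RPKM in Zscan4+ replicates 1 and 2. Its nearest listed region, 15.6 kb away, was one of those gained from near silence. R03801, on chromosome 11 from 88251499 to 88252271, stood apart from other listed regions, with the nearest one 59.0 kb away. It had 0.52 and 1.02 RPKM in Zscan4- replicates 1 and 2 and 10.63 and 16.6 RPKM in Zscan4+ replicates 1 and 2.

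R17612 reached the highest Zscan4+ level of these 10, on chromosome 5 from 142928808 to 142929082. Its values were 1.47 and 1.85 RPKM in Zscan4- replicates 1 and 2, and 18.36 and 36.91 RPKM in Zscan4+ replicates 1 and 2. A listed region 0.559 kb away, which did not meet the rule, was also higher in both replicates, with log2 differences of 0.89 and 1.45. In R20573, on chromosome 8 from 8938826 to 8939075, the Zscan4- replicates were far apart, at 3.64 and 0.45 RPKM (9 and 2 reads), against 19.11 and 21.44 RPKM in Zscan4+ replicates 1 and 2. Its log2 difference was therefore 2.24 in replicate 1 and 4.53 in replicate 2. R20488, on chromosome 7 from 151041582 to 151041861, had 0 reads in both Zscan4- libraries and 15 and 30 reads in Zscan4+ replicates 1 and 2. Set against a floor of 3 reads over the pooled Zscan4- libraries, its 45 pooled Zscan4+ reads give a ratio of 12.1 relative to library totals, and the exact 95% lower counting limit of the ratio is 9.48. It belongs to the 769 only because Zscan4+ replicate 1 was at 2.94 RPKM, just under the limit of 3 RPKM, and it shows no mark in Zscan4- cells at this depth. Of all 769 regions, 5 had 0 pooled Zscan4- reads and 16 had 3 or fewer.

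**Figure D3:**
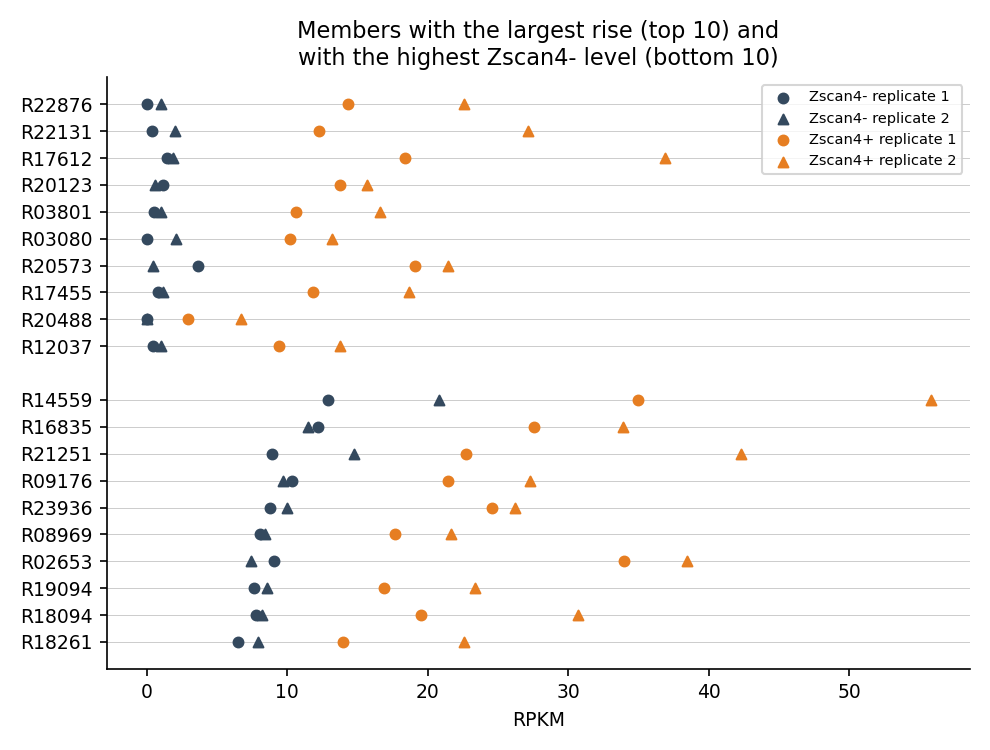
RPKM in each library for 20 strengthened regions: the 10 with the largest mean log2 difference (top) and the 10 with the highest Zscan4- mean (bottom). Zscan4- libraries are dark and Zscan4+ libraries orange, with circles for replicate 1 and triangles for replicate 2; in the bottom group the Zscan4- values run from 6.53 to 20.79 RPKM and no Zscan4+ value of a region lies below its Zscan4- values.

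Regions with a firm mark in Zscan4- cells are those to which the name premarked applies best. The 10 with the highest Zscan4- mean ran from 6.53 to 12.94 RPKM in Zscan4- replicate 1 and from 7.4 to 20.79 RPKM in Zscan4- replicate 2. In Zscan4+ cells they ran from 14.01 to 34.95 RPKM in replicate 1 and from 21.67 to 55.78 RPKM in replicate 2. Their mean log2 differences lay between 1.20 and 2.08, nearer to the limit of 1 than those of the 10 largest, which lay between 3.28 and 4.39. Without Zscan4- replicate 1 their log2 differences lay between 1.05 and 2.21, and without Zscan4- replicate 2 between 1.19 and 1.94. Those fits take the spread between replicates from the Zscan4+ pair alone. The limma calls of the 10 highest in Zscan4- were lost in them, and fewer regions were called over the whole list too. The 10 largest were picked for their difference, so calls are not compared between these lists. R14559, on chromosome 3 from 137495863 to 137496104, had the highest level of all strengthened regions in both states. It had 12.94 and 20.79 RPKM in Zscan4- replicates 1 and 2 and 34.95 and 55.78 RPKM in Zscan4+ replicates 1 and 2. The log2 difference was 1.40 in each replicate, although replicate 2 lay well above replicate 1 in both groups.

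R02653 combined a high start with a log2 difference of 1.85 in replicate 1 and 2.30 in replicate 2, on chromosome 11 from 3067389 to 3068432. It had 9.07 and 7.4 RPKM in Zscan4- replicates 1 and 2 and 33.98 and 38.48 RPKM in Zscan4+ replicates 1 and 2, and its pooled ratio was 4.51 with a counting interval of 3.92 to 5.21. With 94 and 137 reads in Zscan4- cells and 648 and 639 in Zscan4+ cells, it is among the best counted of the named regions. R22008, on chromosome 8 from 125956432 to 125956646, had 6.11 and 5.52 RPKM in Zscan4- replicates 1 and 2 and 32.2 and 50.48 RPKM in Zscan4+ replicates 1 and 2. R23936, on the X chromosome from 166410278 to 166411278, had 8.75 and 9.97 RPKM in Zscan4- replicates 1 and 2 and 24.61 and 26.19 RPKM in Zscan4+ replicates 1 and 2. R16835, on chromosome 5 from 81984699 to 81985706, had 12.19 and 11.52 RPKM against 27.59 and 33.87 RPKM in the same order. In each of these regions the groups were further apart than the replicates. R18094, on chromosome 6 from 54046278 to 54047933, rested on the most reads of the 10, with 128 and 241 in Zscan4- and 590 and 808 in Zscan4+ cells, a ratio of 3.07 with a counting interval of 2.73 to 3.45.

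At the limit itself the rule separated regions of nearly equal difference. In 3 strengthened regions the smaller difference was exactly 1.00: R01827, R05109 and R14254. R01827 had 1.45 and 1.44 RPKM in Zscan4- replicates 1 and 2 and 3.4 and 3.63 RPKM in Zscan4+ replicates 1 and 2. Just outside, R17271 reached 0.998 in replicate 1, with 3.61 and 4.4 RPKM in Zscan4- replicates 1 and 2 and 7.71 and 14.69 RPKM in Zscan4+ replicates 1 and 2. R20695 and R19285 each reached 0.997 in replicate 2. Within 0.1 of the limit, 119 regions lay inside and 121 outside.

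Differences were larger in replicate 2. The strengthened regions had a median log2 difference of 1.51 in replicate 1, with quartiles of 1.23 and 1.95, and of 1.87 in replicate 2, with quartiles of 1.41 and 2.36. Replicate 2 gave the larger value in 554 of 769 (72.0%), against 87.8% of all listed regions. The median of the replicate 2 difference minus the replicate 1 difference was 0.30 for the strengthened regions and 0.42 for all regions. Zscan4+ replicate 2 was above Zscan4+ replicate 1 in 701 of 769 regions, and Zscan4- replicate 2 was above Zscan4- replicate 1 in 475. Replicates differed by 2-fold or more on the log2(RPKM + 0.5) scale in 55 regions in Zscan4- and in 31 in Zscan4+ cells. Across the 769 regions the replicate differences correlated at Pearson r = 0.56 (Spearman rho 0.53), a description over regions that share the same 4 libraries and were cut at 1 on both axes. A mean log2 difference of at least 2, which is 4-fold, was found in 235 of 769, and 126 reached 2 in both replicates. Among the 777 regions gained from near silence, 689 had a mean of at least 2.

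**Figure D4:**
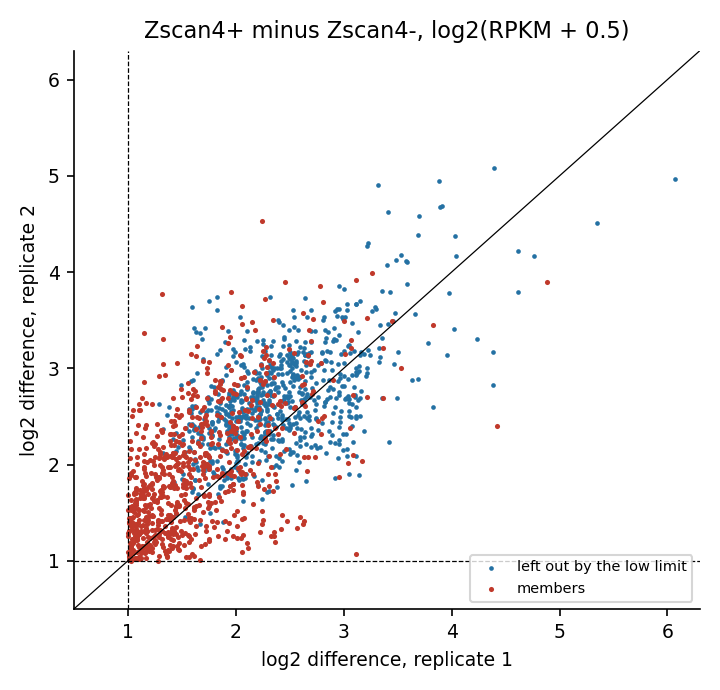
Each point is 1 region, with its log2 difference (Zscan4+ minus Zscan4-, on log2(RPKM + 0.5)) in replicate 1 on the x axis and in replicate 2 on the y axis. Dashed lines mark the limit of 1 and the solid line marks equal differences; 554 of the 769 strengthened regions (red) lie above the solid line, and the 777 regions gained from near silence (blue) reach further from the limit.

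Levels of the strengthened regions were also correlated between the states. Across the 769 regions the log2 levels correlated at Pearson r = 0.79 between the Zscan4- replicates and 0.90 between the Zscan4+ replicates. Between libraries of different groups the range was 0.65 to 0.76, against 0.70 to 0.74 over all listed regions. By rank (Spearman rho) the 769 regions gave 0.70 in each replicate pair and 0.55 to 0.76 between libraries of different groups. Both the limit on the difference and the list shape these values. Together the 769 regions held 0.684% ± 0.017 (SD, n = 2) of the reads in listed regions in Zscan4- and 2.94% ± 0.11 (SD, n = 2) in Zscan4+ cells, on 768 kb of the 27085 kb listed.

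Width was not part of the rule. Strengthened regions had a median width of 930 bp (214 to 3465 bp), against 1111 bp for all listed regions and 1070 bp for those gained from near silence. From 500 to just under 1000 bp, 286 of 6018 listed regions (4.75%) were strengthened, and at 2000 bp or more 16 of 1151 (1.39%). The widest was R10498 on chromosome 18, with 1.25 and 1.14 RPKM in Zscan4- replicates 1 and 2 and 3.84 and 4.84 RPKM in Zscan4+ replicates 1 and 2. R05902, with a width of 3081 bp on chromosome 13 from 58571006 to 58574087, had 5.98 and 5.9 RPKM in Zscan4- replicates 1 and 2 and 13.76 and 16.07 RPKM in Zscan4+ replicates 1 and 2. The 140 strengthened regions under 500 bp had the highest levels after the change, with a median Zscan4+ mean of 9.53 RPKM, against 4.07 RPKM for those from 500 to just under 1000 bp.

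Some exact widths recurred in the list, and the strengthened regions were spread unevenly over them. A width of exactly 214 bp was shared by 422 listed regions, of which 54 (12.8%) were strengthened. A width of exactly 228 bp was shared by 721, of which 1 (0.139%) was strengthened. Regions of 214 bp were higher in Zscan4+ cells in both replicates in 61.6% of cases and lower in both in 9.95%, while regions of 228 bp were higher in both in 6.24% and lower in both in 59.9%. At exactly 500 bp, 34 of 575 (5.91%) were strengthened, and at all other widths 680 of 22228 (3.06%). How the regions were called is not given in the sources used here, so the part of region calling in these shares was not tested. Without the regions of exactly 214, 228 or 500 bp, an alternative chosen after seeing the data, the median log2 difference of the strengthened regions was 1.70 in place of 1.71.

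Strengthened regions lay on every chromosome of the list. Their share of listed regions ran from 1.99% on chromosome 14 (18 of 905, exact 95% binomial interval 1.18 to 3.13%) to 4.58% on chromosome 16 (37 of 807, 3.25 to 6.27%) among the autosomes. It was 2.49% on the X chromosome (15 of 603, 1.40 to 4.07%), and 1 of the 4 listed regions of the Y chromosome was strengthened. Intervals cover counting error only and treat neighbouring regions as independent, which they are not. For 19 of 21 chromosomes the interval holds the 3.21% of the whole list, and the exceptions were chromosomes 14 and 16. The intervals are not adjusted for the number of chromosomes, so some can miss the list share by counting error alone.

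Most strengthened regions stood alone among their kind, while listed regions a few kb away were often higher too. Chained at gaps of at most 50 kb, 664 of 769 were single, 90 formed 45 pairs, and 15 formed 5 runs of 3. Another strengthened region lay within 50 kb of 105 of them (13.7%), and a strengthened region lay within 50 kb of 7.44% of all listed regions. A region gained from near silence lay within 50 kb of 73 (9.49%), against 4.90% of all listed regions. For 645 of 769 the nearest listed region belonged to neither set. Where that neighbour was at most 5 kb away, it was higher in Zscan4+ cells in both replicates in 99 of 170 cases (58.2%), against 19.7% of such neighbours of any listed region. At gaps over 5 and up to 50 kb this share was 33.5% against 20.8%, and at gaps over 50 kb it was 15.9% against 22.5%. With each replicate centred on its median over the list, the shares were 73.5% against 35.8% at most 5 kb away, 52.1% against 36.9% up to 50 kb and 32.5% against 38.2% beyond. The same libraries measured both regions and neighbours belong to several pairs, so these shares are given without a test.

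**Figure D5:**
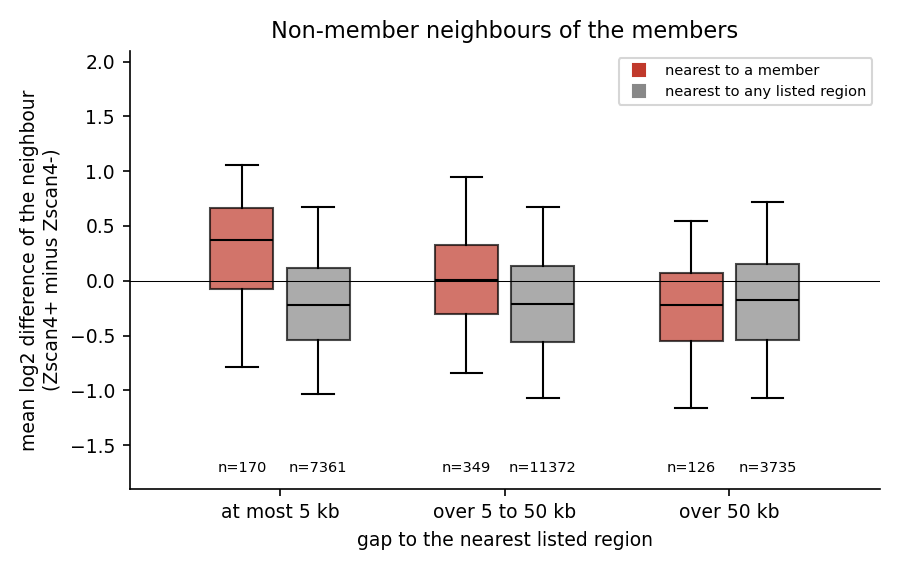
Boxes show the mean log2 difference (Zscan4+ minus Zscan4-) of the nearest listed region, where it was neither strengthened nor gained from near silence, by its gap in kb, for strengthened regions (red) and for any listed region (grey). Boxes give median and quartiles, and whiskers run from the 5th to the 95th percentile; next to strengthened regions the median is 0.37 at most 5 kb away and -0.22 beyond 50 kb, against -0.22 and -0.18 for any listed region.

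The 3 runs taken first by position show how close such regions can lie. On chromosome 1 from 145629065 to 145636256, within 7.19 kb, all 3 listed regions were strengthened (R00983, R00984 and R00985). Their mean was 1.28 and 1.62 RPKM in Zscan4- replicates 1 and 2 and 4.45 and 5.89 RPKM in the Zscan4+ pair. The run on chromosome 11 from 79966247 to 80008507 held 6 listed regions, of which 3 were strengthened: R03683, R03686 and R03688. The 3 between them had log2 differences of 0.22 to 0.51 in replicate 1 and of 0.42 to 0.54 in replicate 2, so they too were higher in both. R03683 had 1.34 and 0.39 RPKM in Zscan4- replicates 1 and 2 and 7.16 and 10.66 RPKM in the Zscan4+ pair. On chromosome 13 from 107645829 to 107704072, 3 of 4 listed regions were strengthened, and R06333 was the strongest of them, with 5.26 and 3.64 RPKM in Zscan4- replicates 1 and 2 and 16.83 and 19.1 RPKM in Zscan4+ replicates 1 and 2. The listed region of that run that did not meet the rule, R06335, missed it in replicate 1 with a log2 difference of 0.53 and reached 1.33 in replicate 2.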

How the data were processed

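H3K27ac ChIP-seq was analysed in 2 Zscan4- and 2 Zscan4+ libraries, grouped by the labels' descriptions. The deposited values are RPKM, per the file headers, which the authors rounded to 2 decimals over one list of regions; Bowtie, HOMER and the build mm9 are named in the submitters' processing notes, with no version and no word on how the list was made. Positions are printed as deposited. Reads were recovered as the library total at which RPKM times width falls on whole numbers: of the values under 50 reads, 97.1% to 100.0% per library lay within 0.1 reads of one. For a strengthened region of median width, the 3 reads that a count of 0 still allows equal 0.176 RPKM (Zscan4+ replicate 1, the deepest) to 0.325 RPKM (Zscan4- replicate 1, the shallowest). Intervals and floors cover counting error only.

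All 23946 regions were fitted with limma 3.58.1 in R 4.3.3 on log2(RPKM + 0.5), with a variance trend, a minimum mean of 0.5 RPKM that removed no region, two-sided tests and Benjamini-Hochberg adjustment. Such p-values rest on the spread of these 4 libraries only, which may be technical. The fit shares this spread across regions, so they say little about the replicate spread of a single region. Standard errors of the named regions ran from 0.352 (R22876) to 0.413 (R14559). R20573, with Zscan4- replicates far apart, had 0.361. The script was tested on simulated data. Differences of exactly 1 were kept despite rounding of logarithms. Descriptions used Python 3.11.15 and scipy 1.17.1. For the differences of the rule, libraries with the same replicate number were taken as pairs, since the labels describe another preparation for replicate 2. The main limma fit compared the groups without this pairing, which entered only as the replicate block among the alternatives. The difference between replicates correlated at 0.35 between the groups across all listed regions and at 0.20 across the 769 strengthened regions. Named regions are the 10 with the largest mean difference, the 10 highest in Zscan4-, the 5 highest in Zscan4+, the 5 widest, the first 3 runs, and 3 on each side of the limit; some are given by their range. Regions and rules were chosen with earlier results of these data known. Gene lists, motifs and sequence content were not used here. Alternatives were a replicate block, median centring, quantile normalization, other pseudocounts and minimums, voom on recovered reads, leaving out each library, and other forms of the rule.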

Additional observations from a re-analysis of the deposited data

How the results depend on the processing

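All other forms of the rule left out the regions gained from near silence as defined on the deposited values of all 4 libraries. The number of strengthened regions (769) was 1452 with the difference limit applied to replicate 2 alone and 901 with it applied to replicate 1 alone. It was 907 with a pseudocount of 0.1, 595 with one of 1, 935 with median centring and 789 with quantile normalization. It was 630 when every region below 1 RPKM in both Zscan4- libraries was left out. It was 768 without a tolerance for rounding and 680 without regions of exactly 214, 228 or 500 bp, both chosen after seeing the data. Their median log2 difference (1.71) was 2.00 and 1.45 with pseudocounts of 0.1 and 1, since a smaller pseudocount widens the difference of low values, and lay between 1.48 and 1.92 in the leave-one-out fits. Calls among the 769 numbered 309 to 766 in those fits, 765 with quantile normalization and 748 with voom. Higher calls over the list (1917) numbered 3375 with median centring, 3307 with quantile normalization, and 1101 to 3119 in the leave-one-out fits; the cause was not tested. With the replicate block 2238 regions were called higher, and 769 of 769 strengthened regions, so that the pairing changed no call among them. Of 378 values of the 42 named regions under 9 settings, 0 reversed and 56 lost their call, all 56 in leave-one-out fits, which take the spread of the remaining library from the other group. Depth limits the regions near the floor: 169 of 769 had 3 or fewer reads in Zscan4- replicate 1 and 50 in replicate 2.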
